A study of Mus musculus with 4 samples.

Results

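Dividing cells transcribe genes for copying their DNA and, later, genes for pulling the copies apart, and 43 such genes were followed in immune cells of the mouse liver. They were chosen by symbol from the 27998 genes counted in each library, and all 43 were found. The S-phase list holds 20 genes: Mcm2, Mcm3, Mcm4, Mcm5, Mcm6, Mcm7, Pcna, Rrm1, Rrm2, Tk1, Tyms, Uhrf1, Lig1, Dut, Gins2, Cdc6, Cdt1, Hells, 2810417H13Rik (Pclaf in the GENCODE annotation) and Ccne2. The mitotic list holds 23: Mki67, Top2a, Birc5, Ube2c, Cdk1, Ccnb1, Ccnb2, Ccna2, Cdc20, Cenpe, Cenpf, Cenpa, Aurka, Aurkb, Plk1, Bub1, Kif11, Kif20b, Tpx2, Nusap1, Hmmr, Prc1 and Stmn1. The data are single-cell RNA sequencing libraries of CD45+ leukocytes taken from livers of adult wild-type C57BL/6 mice. In the exercise group, mice ran on a treadmill at 12.5 m/min for 60 min a day, 5 days a week, for 4 weeks. Sedentary mice spent the same sessions and weeks on a belt that stood still. Each group has 2 libraries, and no label says which animal or how many animals a library came from, so a p-value here measures the spread between libraries. The labels give a serum alanine aminotransferase, an enzyme that leaks from injured hepatocytes, of 26 and 59 U/L for exercise replicates 1 and 2 and of 33 and 56 U/L for sedentary replicates 1 and 2.

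In a resting cell the retinoblastoma proteins hold E2F transcription factors in check. Cyclin D kinases release E2F, and the genes of DNA replication are then transcribed together. Mitotic genes follow later in the cycle through the MuvB complex with B-MYB and FOXM1, which reads a cell cycle homology region (CHR) in their promoters beside CCAAT boxes bound by NF-Y. Kupffer cells are macrophages that live in the liver sinusoids and can renew themselves by dividing in place. T cells divide after they meet antigen.

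The promoters of the members carry these elements in different shares, and 5 windows that carry the elements of their list are shown. RefSeq promoter sequences (GRCm38.p6, 250 bases before to 50 after each start) were matched for 36 of the 43 members, with 21 windows for 17 S-phase members and 20 for 19 mitotic members, since some members have more than 1 start. Mcm3 (chr1:20820263-20820562, minus strand) and Cdc6 (chr11:98907901-98908200, plus strand) are S-phase members, and capitals mark E2F words. Ube2c (chr2:164769679-164769978, plus strand), Mki67 (chr7:135716330-135716629, minus strand) and Cenpa (chr5:30666636-30666935, plus strand) are mitotic, and capitals mark CHR words (TTTGAA) and CCAAT words. Both strands were searched, so a word may stand as its reverse complement. All are written 5′ to 3′ on the strand of the gene.
Mcm3: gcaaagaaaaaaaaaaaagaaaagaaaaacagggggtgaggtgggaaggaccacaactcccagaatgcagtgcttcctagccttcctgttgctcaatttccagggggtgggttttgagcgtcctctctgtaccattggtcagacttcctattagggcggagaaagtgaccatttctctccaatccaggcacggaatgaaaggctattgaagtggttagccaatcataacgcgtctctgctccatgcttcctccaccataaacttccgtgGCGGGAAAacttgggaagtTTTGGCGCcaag
Cdc6: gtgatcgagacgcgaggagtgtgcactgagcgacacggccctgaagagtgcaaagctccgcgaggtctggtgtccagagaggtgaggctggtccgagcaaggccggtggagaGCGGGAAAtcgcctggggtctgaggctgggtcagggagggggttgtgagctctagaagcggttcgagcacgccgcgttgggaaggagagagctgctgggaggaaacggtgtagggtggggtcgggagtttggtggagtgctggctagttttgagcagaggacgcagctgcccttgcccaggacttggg
Ube2c: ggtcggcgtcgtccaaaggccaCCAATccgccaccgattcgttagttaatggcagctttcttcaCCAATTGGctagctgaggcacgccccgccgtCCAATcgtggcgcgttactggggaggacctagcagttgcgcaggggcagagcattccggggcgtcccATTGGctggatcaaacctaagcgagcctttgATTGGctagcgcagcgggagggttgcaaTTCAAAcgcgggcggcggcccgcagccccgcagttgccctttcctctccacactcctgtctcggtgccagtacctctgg
Mki67: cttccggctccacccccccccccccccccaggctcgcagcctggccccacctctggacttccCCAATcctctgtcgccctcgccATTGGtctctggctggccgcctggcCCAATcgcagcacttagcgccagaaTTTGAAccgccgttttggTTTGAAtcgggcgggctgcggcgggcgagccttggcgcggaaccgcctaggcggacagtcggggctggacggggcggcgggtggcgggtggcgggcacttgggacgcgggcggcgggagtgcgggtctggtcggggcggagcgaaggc
Cenpa: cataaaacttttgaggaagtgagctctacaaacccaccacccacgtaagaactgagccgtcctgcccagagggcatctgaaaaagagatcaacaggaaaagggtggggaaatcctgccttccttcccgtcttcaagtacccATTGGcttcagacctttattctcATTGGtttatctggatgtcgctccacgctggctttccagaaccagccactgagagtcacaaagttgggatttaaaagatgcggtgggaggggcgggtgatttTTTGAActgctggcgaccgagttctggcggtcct

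An E2F word (TTTCCCGC, TTTCGCGC, TTTGGCGC or TTTGCCGC) stood in 10 of 21 S-phase windows (47.6%) and 1 of 20 mitotic windows (5%), against 2.26% of all 32851 promoter windows. The CHR word ran the other way, in 1 of 21 S-phase windows (4.76%) and 15 of 20 mitotic windows (75%), against 17.9% of all windows. At least 2 CCAAT words stood in 8 S-phase windows (38.1%) and 12 mitotic windows (60%), against 11.7% of all. A CHR word together with at least 2 CCAAT words stood in 0 S-phase windows and 10 mitotic windows (50%), against 2.09% of all. CCAAT words may overlap each other, as in Ube2c, whose window holds 6. These matches describe letters in a window and say nothing of binding.

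The files list 2991 and 4265 barcodes for exercise replicates 1 and 2 and 4165 and 3962 for sedentary replicates 1 and 2, and total UMIs of 10050976 and 14849778 for exercise and of 10662091 and 11826183 for sedentary mice. A UMI is a tag that counts 1 captured transcript. After filters and removal of scored doublets, 14560 cells were left, with median UMIs of 2720 and 2846.5 per cell in exercise libraries and 2029 and 2382 in sedentary libraries. Cells were grouped without the cell cycle genes of the lists used here, with the aim that dividing cells stay with their lineage. The groups are called like a cell type after markers: 5656 Kupffer-like, 2537 T-like, 2139 B-like, 963 endothelial (LSEC)-like and smaller classes. The gene of the sorted antigen, Ptprc (CD45), had a UMI in 70.2% of Kupffer-like and 65.7% of T-like cells but in 9.76% of endothelial (LSEC)-like cells, a class a CD45+ selection should lack. Transcripts of other liver cells differed between the groups: 9 hepatocyte markers summed to 143 and 103 UMIs per 1000000 UMIs (CPM) in Kupffer-like cells of the exercise libraries, against 1373 and 650 in the sedentary ones, and 4 hemoglobin genes to 111 and 280 against 1050.3 and 855. In T-like cells the hepatocyte markers summed to 20.4 and 18.95 in the exercise libraries and 234 and 55.3 in the sedentary libraries. The part of these transcripts and of depth in the results below was not tested, except where thinned values are given.

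Levels of a list are the summed CPM of its genes in a class, and for both lists the means over the libraries were highest in conventional dendritic cells and T-like cells and lowest in mature DC-like cells. In conventional dendritic cells of type 2 (cDC2-like), which present antigen to CD4+ T cells, the mean over the 4 libraries was 883 for the S-phase list and 964 for the mitotic list. In cDC1-like cells, which present antigen to CD8+ T cells, it was 769 and 825, and in T-like cells 734 and 673. In mature DC-like cells it was 108.5 and 40.5, in classical monocyte-like cells 133 and 45.8, and in plasmacytoid (pDC-like) cells 179 and 57.1. A cluster with hemoglobin and Kupffer transcripts, left unnamed, came next after T-like cells, with means of 729 and 510. Its mitotic sums were 323 and 569 in exercise libraries and 668 and 482 in sedentary libraries, which overlapped. A sum cannot tell more cells with these transcripts from more transcript per cell, so shares of cells are given further down.

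**Figure D1:**
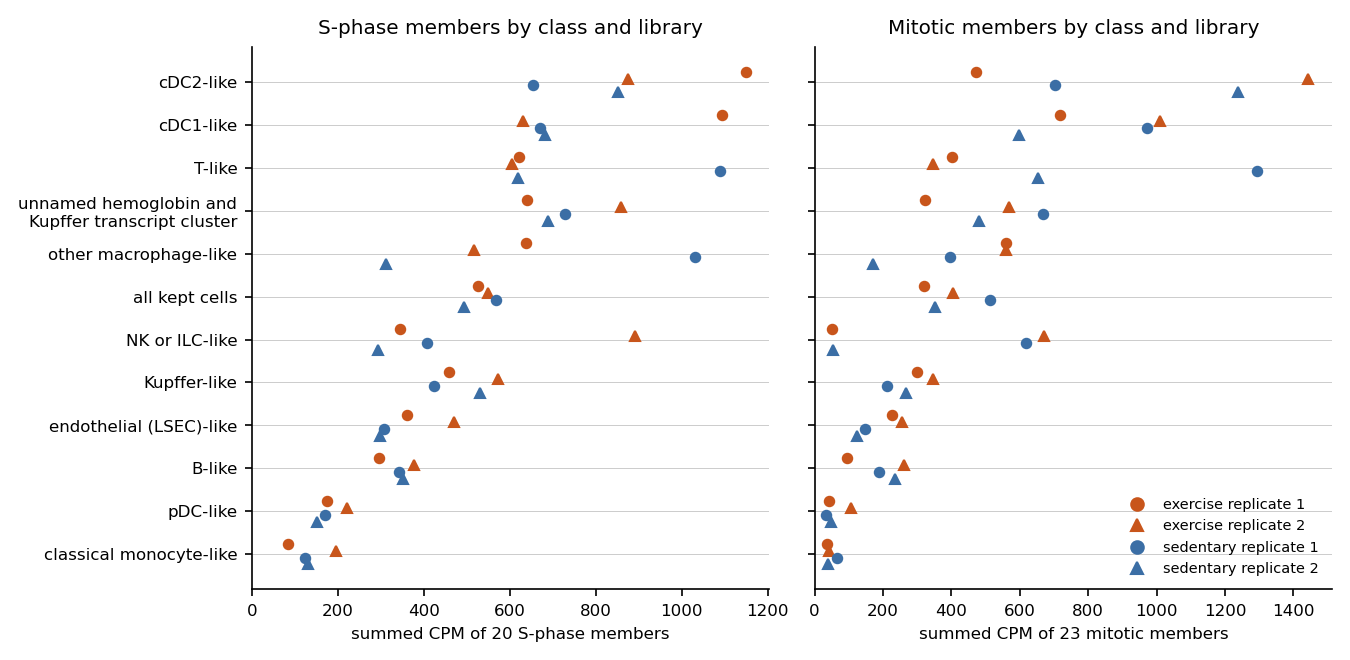
Summed CPM (x axes) of the 20 S-phase members (left) and the 23 mitotic members (right) in each cell class (rows) and library (points, exercise in orange and sedentary in blue; circles are replicate 1 and triangles replicate 2). In T-like cells both exercise libraries (402 and 345) lie below both sedentary libraries (1292 and 652) for the mitotic list, while in Kupffer-like cells both exercise libraries (298 and 347) lie above both sedentary ones (211 and 267).

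Within the cDC2-like class the most abundant members can be read one by one. Stmn1 had 205 and 328 CPM in the exercise libraries, against 274 and 385 in the sedentary libraries. 2810417H13Rik had 152 and 189 in exercise libraries and 104 and 283 in sedentary libraries, and Pcna 139.7 and 111 against 92.2 and 127. For each of the 3 the groups overlapped. The summed S-phase level of cDC2-like cells was 1150 and 876 in exercise, against 654 and 852 in sedentary libraries, with a narrow gap between the groups. Of 24 members tested in this class 0 were called by edgeR, which called 0 genes (0%) here, and 0 by DESeq2. An unadjusted p under 0.05 was reached by 1 member, against 5.08% of all genes.

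Over all cells together the S-phase list did not separate the groups, and the mitotic list did not either. The S-phase sum was 525 and 548 CPM in exercise libraries and 569 and 494 in sedentary libraries, a mean of 537 ± 16.3 against 531 ± 52.9 (SD, n = 2 each). The mitotic sum was 320 and 403 in exercise libraries and 513 and 351 in sedentary libraries. In this pool 0 of 43 members were called by edgeR and 0 by DESeq2, where edgeR called 0.0658% of all genes. An unadjusted p under 0.05 was reached by 2 members, against 6.87% of all genes. All 23 mitotic members had a negative fitted log2 change, with a median of -0.32, against -0.01 for the S-phase members and 0.00 for all genes. The classes underneath this pool differed from each other in direction.

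In Kupffer-like cells most replication genes overlapped between the groups. Pcna, the sliding clamp of DNA polymerase (chr2:132249162-132253314), had 135 and 136 CPM in exercise libraries and 120 and 137 in sedentary libraries. Mcm3, a subunit of the replicative helicase (chr1:20802968-20820312), had 32.2 and 49.99 in exercise libraries and 45.2 and 37.4 in sedentary libraries. Both sets of libraries overlapped, and the log2 changes were 0.09 (SE 0.12) and 0.04 (SE 0.21). Tk1, thymidine kinase, had 28.5 and 38.3 in exercise libraries and 26.6 and 35.6 in sedentary libraries, again with overlap. The other helicase subunits had small changes of the same kind, with Mcm2 at -0.30 (SE 0.29) and Mcm6 at -0.24 (SE 0.25) the most negative of the members tested in this class.

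The 3 S-phase members with both exercise libraries above both sedentary libraries were Rrm2, Cdc6 and 2810417H13Rik. Cdc6, which loads the helicase onto origins (chr11:98907801-98923940), had 6.14 and 6.96 CPM in exercise libraries and 2.66 and 2.77 in sedentary libraries. This is the largest log2 change of the list, 1.29 (SE 0.33), and rests on 25 and 44 UMIs in exercise libraries and 9 and 12 in sedentary libraries. Its adjusted p from edgeR was 0.332 (unadjusted 0.00426). Rrm2, the regulated subunit of ribonucleotide reductase, had 26.3 and 31.2 in exercise libraries and 7.98 and 23.1 in sedentary libraries (log2 change 0.86, SE 0.37, adjusted p from edgeR 0.822). 2810417H13Rik, a factor that binds PCNA, had 39.8 and 47.6 in exercise libraries and 20.1 and 39.5 in sedentary libraries, where sedentary replicate 2 came close to exercise replicate 1.

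The mitotic members of Kupffer-like cells leaned higher with exercise, by amounts that did not pass the test. Stmn1, stathmin, which frees tubulin from microtubules (chr4:134468320-134473843), had 78.9 and 94.9 CPM in exercise libraries and 42.6 and 71.8 in sedentary libraries (log2 change 0.61, SE 0.23, adjusted p from edgeR 0.766). Top2a, which untangles sister DNA, had 37.6 and 34.2 in exercise libraries and 18.03 and 30.9 in sedentary libraries, and Cdk1, the kinase that starts mitosis, 25.5 and 28.0 in exercise libraries and 19.5 and 22.9 in sedentary libraries. Each of these 3 had both exercise libraries above both sedentary libraries. Cenpa, the histone that marks the centromere (chr5:30666777-30674830), had 25.3 and 36.9 in exercise libraries and 23.9 and 21.7 in sedentary libraries (log2 change 0.49, SE 0.20). Mki67, the proliferation antigen Ki-67 (chr7:135689784-135716361), had 14.7 and 13.1 in exercise libraries and 10.9 and 9.24 in sedentary libraries (log2 change 0.48, SE 0.21). Both were separated between the groups. Cdc20, which activates the anaphase-promoting complex, had 3.19 and 5.22 in exercise libraries and 2.66 and 1.85 in sedentary libraries (log2 change 0.98, SE 0.44), from 8 to 33 UMIs a library. Ube2c, the ubiquitin-conjugating enzyme of that complex, had 16.95 and 25.5 in exercise libraries and 17.4 and 20.6 in sedentary libraries, and here the groups overlapped.

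Counted over the lists, the exercise libraries lay above the sedentary ones without overlap for 3 of 20 tested S-phase members and 13 of 21 tested mitotic members, where 16% of all tested genes did so. They lay below without overlap for 0 of these 41 members, where 19.7% of all tested genes did. The median log2 change was 0.07 over the S-phase and 0.40 over the mitotic members, against 0.00 over all genes, and 13 of 20 S-phase and 19 of 21 mitotic members were positive. By edgeR 0 of 41 members were called, where 0.46% of all genes were; 5 members (12.2%) had an unadjusted p under 0.05, against 5.97% of all genes, and DESeq2 called 0. Bub1 and Kif20b had too few UMIs to be tested. The fitted change took the other sign under at least 1 of 10 alternatives for 22 of the 41 members. The summed mitotic level was 298 and 347 CPM in exercise libraries and 211 and 267 in sedentary libraries, or 322.7 ± 34.3 against 239 ± 39.8 (SD, n = 2 each). The summed S-phase level was 457 and 571 in exercise libraries and 423 and 530.1 in sedentary libraries, which overlapped. Signs of stress and RNA quality also differed between the groups in this class. Immediate early and heat shock genes had a negative change for 15 of 16, with a median of -0.56, 11 at an unadjusted p under 0.05 and 1, Egr1, called (-0.82, adjusted p from edgeR 0.0285). The median mitochondrial share was 6.98 and 6.35% in exercise libraries and 8.74 and 7.66% in sedentary libraries, without overlap. The part of either in the values of the members was not tested.

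**Figure D2:**
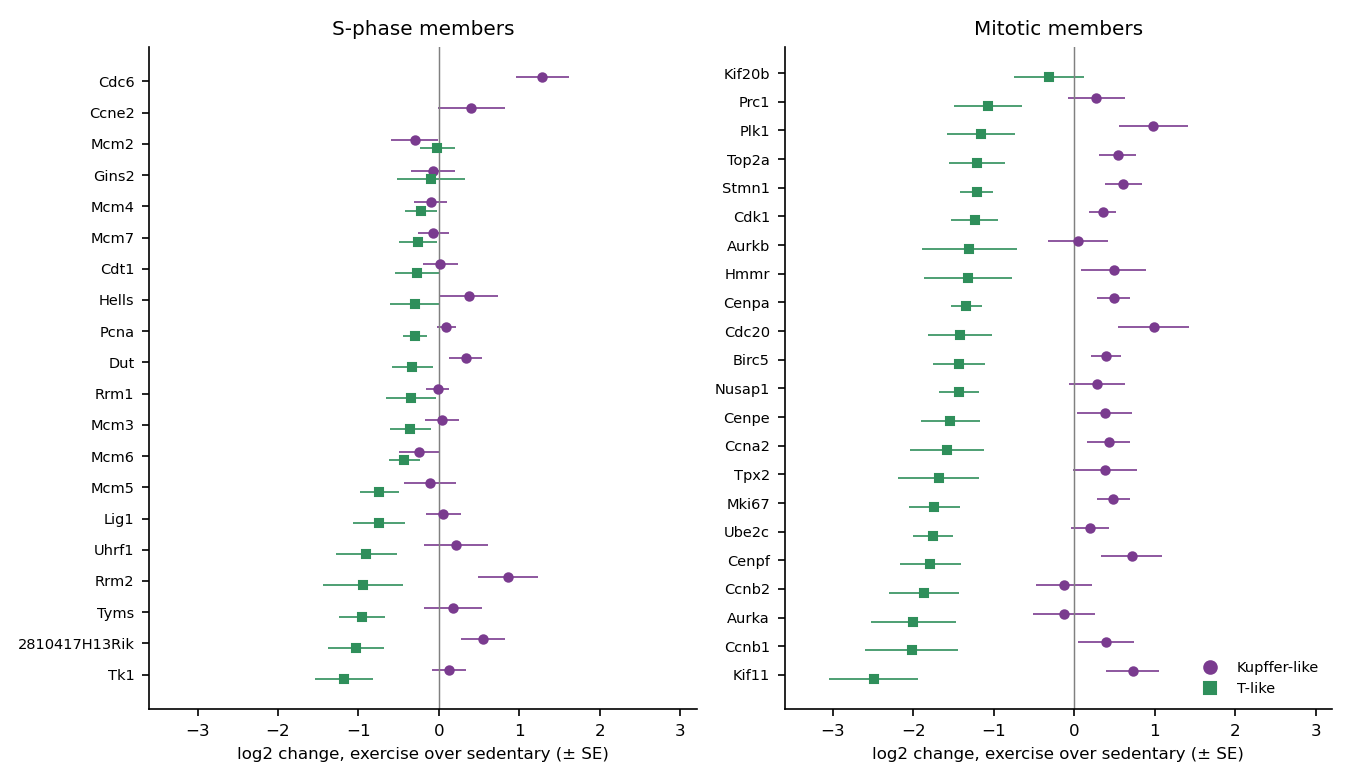
Fitted log2 change with exercise (x axes, exercise over sedentary, bars ± SE from edgeR) of each S-phase member (left) and mitotic member (right) in Kupffer-like (purple circles) and T-like cells (green squares), for members tested in that class. All 40 members tested in T-like cells lie below 0, and 19 of the 21 mitotic members tested in Kupffer-like cells lie above it.

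To compare cells of unequal depth, every cell was thinned to 1000 UMIs and counted as carrying members when at least 3 had a UMI. In Kupffer-like cells of the exercise libraries this held for 41 of 1219 (3.36%, exact 95% binomial interval 2.42 to 4.54) and 141 of 1822 (7.74%, 6.55 to 9.06). In the sedentary libraries it held for 57 of 1256 (4.54%, 3.46 to 5.84) and 83 of 1325 (6.26%, 5.02 to 7.71). The groups overlapped, and in both groups the library with the higher serum alanine aminotransferase, replicate 2, had the higher share. In T-like cells, given below, sedentary replicate 1 had a higher share than sedentary replicate 2. A link of the shares to this enzyme was not tested. Before thinning it held for 127 of 1219 and 328 of 1822 cells of the exercise libraries, against 131 of 1290 and 183 of 1325 of the sedentary ones. These intervals cover counting error only.

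Split by phase, the cells that carried at least 3 members of both lists were the ones that separated the groups. They made up 1.64% (1.01 to 2.52) and 1.54% (1.02 to 2.21) of Kupffer-like cells in the exercise libraries, against 0.478% (0.176 to 1.04) and 1.13% (0.635 to 1.86) in the sedentary libraries. The intervals of the exercise libraries overlap that of sedentary replicate 2. Cells with S-phase members only made up 0.902 and 3.29% in exercise libraries and 2.23 and 2.94% in sedentary libraries, and cells with mitotic members only 0.738 and 1.54% against 0.955 and 1.28%. In both of these kinds the groups overlapped. The largest number of members seen in 1 Kupffer-like cell after thinning was 13 and 12 in exercise libraries and 17 and 13 in sedentary libraries.

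**Figure D3:**
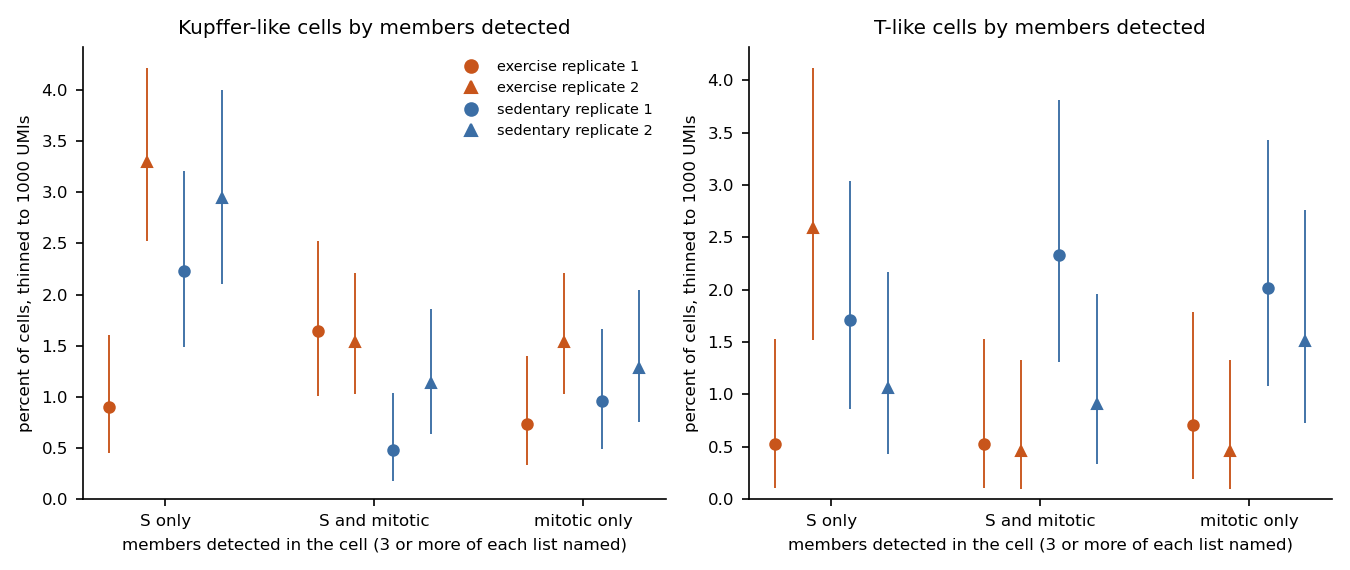
Percent of cells, thinned to 1000 UMIs, with at least 3 S-phase members only, with at least 3 of both lists, or with at least 3 mitotic members only (x axis), in Kupffer-like (left) and T-like cells (right), per library (exercise in orange, sedentary in blue; bars are exact 95% binomial intervals). For cells with both lists, the exercise libraries lie above the sedentary ones in Kupffer-like cells (1.64 and 1.54% against 0.478 and 1.13%) and below them in T-like cells (0.527 and 0.457% against 2.33 and 0.906%).

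A finer clustering split Kupffer-like cells into 3 clusters that held members in different amounts. The cluster with the shallowest cells and the highest mitochondrial share held the most: its mitotic sum was 631 and 688 CPM in exercise libraries and 491 and 526 in sedentary libraries. Its cells had median mitochondrial shares of 10.8 and 9.59% in exercise libraries and 10.98 and 9.92% in sedentary libraries. The other 2 clusters were split between the groups, since the first held 717 and 1121 cells of the exercise but 143 and 184 of the sedentary libraries, and the second, led by hepatocyte genes, 47 and 74 of exercise libraries and 857 and 663 of sedentary libraries. In the first of these the mitotic sum was 212 and 273 in exercise libraries and 258 and 269 in sedentary libraries, with overlap. In the second it was 96.5 and 107 in exercise libraries and 154 and 164 in sedentary libraries. The higher mitotic sum of the whole class in the exercise libraries was also seen in the shallow cluster and not in the other 2, and the part of cluster makeup in it was not tested.

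In T-like cells the mitotic members had lower values in the exercise libraries, and none of them passed the adjusted test. Stmn1 had 84.3 and 99.8 CPM in exercise libraries and 261 and 159 in sedentary libraries (log2 change -1.22, SE 0.21, adjusted p from edgeR 0.11). Ube2c (chr2:164769898-164778822) had 29.3 and 27.3 in exercise libraries and 119 and 67.8 in sedentary libraries (log2 change -1.75, SE 0.25, adjusted p from edgeR 0.066). Cenpa had 39.8 and 29.6 in exercise libraries and 97.6 and 73.4 in sedentary libraries (log2 change -1.34, SE 0.19, adjusted p from edgeR 0.066). In all 3 both exercise libraries lay below both sedentary libraries, and sedentary replicate 1 was the highest library. Birc5, survivin, part of the chromosomal passenger complex (chr11:117849251-117855743), had 38.7 and 30.5 in exercise libraries and 128 and 54.3 in sedentary libraries (log2 change -1.43, SE 0.33). Mki67 had 11.5 and 9.24 in exercise libraries and 43.6 and 24.1 in sedentary libraries (log2 change -1.74, SE 0.32, adjusted p from edgeR 0.11). Kif11, the motor that separates spindle poles, had the most negative change, -2.49 (SE 0.55), at 3.66 and 1.85 in exercise libraries and 21.8 and 8.54 in sedentary libraries, from 4 to 44 UMIs a library. In each of Birc5, Mki67 and Kif11 both exercise libraries lay below both sedentary libraries.

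Of the S-phase members of T-like cells, 7 were separated between the groups and 11 were not. Pcna had 114 and 98.5 CPM in exercise libraries and 141 and 115 in sedentary libraries (log2 change -0.30, SE 0.15, adjusted p from edgeR 0.714). Dut, which keeps uracil out of DNA, had 96.3 and 80.0 in exercise libraries and 144 and 72.3 in sedentary libraries, and its libraries overlapped (log2 change -0.33, SE 0.25). Tk1 had 9.95 and 13.9 in exercise libraries and 36.2 and 17.1 in sedentary libraries, without overlap, and 2810417H13Rik 74.9 and 49.9 against 179 and 69.3, with overlap. Among the helicase subunits Mcm5 had 21.5 and 31.4 in exercise libraries and 51.0 and 36.2 in sedentary libraries, while Mcm2 had 34.6 and 43.9 in exercise libraries and 46.1 and 32.2 in sedentary libraries, with a log2 change of -0.02 (SE 0.22).

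Over the lists, both exercise libraries lay below both sedentary libraries for 7 of 18 tested S-phase members (Mcm4, Mcm5, Mcm6, Pcna, Tk1, Tyms and Uhrf1) and 20 of 22 tested mitotic members, where 15.1% of all tested genes did so. The 2 mitotic exceptions were Aurkb and Kif20b. They lay above without overlap for 0 of the 40, where 22.2% of all tested genes did. All 40 fitted changes were negative, with a median of -0.35 over the S-phase and -1.43 over the mitotic members, against 0.00 over all genes. By edgeR 0 of 40 were called, where 0.0228% of all genes (2 of 8770) were. An unadjusted p under 0.05 was reached by 28 of 40 (70%), 7 S-phase and 21 mitotic, against 7.06% of all genes. DESeq2 called 3: Ube2c, Stmn1 and Cenpa. With no filter on low counts edgeR called 22. With the replicate number as a block edgeR also called 22, though no label says that equal numbers pair animals. It called 19 without exercise replicate 1, 14 without exercise replicate 2, 3 without sedentary replicate 1 and 24 without sedentary replicate 2, so the count of calls depended on these settings. For 10 of the 40 members, Mcm2 and Dut among them, the fitted change took the positive sign under at least 1 of 10 alternatives. Immediate early and heat shock genes had a negative change for 13 of 14 in this class, with a median of -0.52. By edgeR 9 of the 14 had an unadjusted p under 0.05 and 0 were called, and their part was not tested. Cdc6, Ccne2 and Bub1 had too few UMIs to be tested.

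Sums and shares of T-like cells gave the same split by phase. The mitotic sum was 402 and 345 CPM in exercise libraries and 1292 and 652 in sedentary libraries, or 373 ± 40.1 against 972 ± 453 (SD, n = 2 each). With cell cycle genes kept in the clustering it was 405 and 502 in exercise libraries and 1380 and 722 in sedentary libraries. The class given to some dividing cells thus depended on the genes used. The S-phase sum was 621 and 604 in exercise libraries and 1089.6 and 620.0 in sedentary libraries, where all of the difference lay in sedentary replicate 1. The ratio of the S-phase sum to the mitotic sum was 1.55 and 1.75 in exercise libraries and 0.843 and 0.951 in sedentary libraries. In Kupffer-like cells the same ratio was 1.53 and 1.65 in exercise libraries and 2.01 and 1.98 in sedentary libraries. After thinning, at least 3 mitotic members were detected in 7 T-like cells (1.23%) and 6 (0.915%) of the exercise libraries, against 28 (4.35%) and 16 (2.42%) of the sedentary libraries. With at least 3 members of any phase the shares were 2.11 and 4.57% in exercise libraries and 6.52 and 4.23% in sedentary libraries, which overlapped.

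The T-like class is made of 2 clusters. In the larger one, with Cxcr6, Cd3g and Il2rb among its leading genes, the mitotic sum was 214 and 386 CPM in exercise libraries and 723 and 691 in sedentary libraries. In the smaller one, led by Cd8b1, Dapl1 and Lef1, genes of CD8+ and naive T cells, it was 1028 and 171 in exercise libraries and 2019 and 558 in sedentary libraries. By this sum the groups were apart in the larger cluster and overlapped in the smaller one. By the share of cells with at least 3 members after thinning, the groups overlapped in the larger cluster. This share was 1.75 and 4.80% in exercise libraries and 3.58 and 3.83% in sedentary libraries. In the smaller cluster 27 of 225 cells of sedentary replicate 1 (12%) carried at least 3 members after thinning, against 4 of 112 (3.57%) and 4 of 114 (3.51%) in the exercise libraries and 9 of 166 (5.42%) in sedentary replicate 2.

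The difference between the classes was tested directly, as the exercise effect in Kupffer-like cells minus that in T-like cells with the library as a block. Of 42 members tested, 4 were called, all mitotic and all with a higher exercise effect in Kupffer-like cells, where 0.124% of all tested genes (13 of 10461) were called. The difference was 1.80 for Cenpa (log2, SE 0.27, adjusted p from edgeR 0.0202) and 2.18 for Mki67 (SE 0.34, adjusted p from edgeR 0.0204). It was 1.88 for Ube2c (SE 0.32, adjusted p from edgeR 0.0395) and 1.80 for Stmn1 (SE 0.31, adjusted p from edgeR 0.0407). For each of the 4 both exercise libraries lay below both sedentary libraries in T-like cells, and for Cenpa, Mki67 and Stmn1 they lay above both in Kupffer-like cells. The median difference was 0.59 over the S-phase and 1.81 over the mitotic members, against 0.00 over all genes, and 18 of 20 S-phase and 21 of 22 mitotic members were positive. The same test called genes outside the members, among them Klf2, a factor of quiescent T cells (1.19, adjusted p from edgeR 0.0120), and 2 of 7 MHC class II genes, Cd74 (0.94, adjusted p from edgeR 0.0120) and H2-Aa (0.86, adjusted p from edgeR 0.0430). All 7 MHC class II genes had a positive difference and a negative exercise change in T-like cells, which do not normally express them in the mouse, and their part in the difference was not tested. DESeq2 called 0 members. Without exercise replicate 2 edgeR called 3 members (Stmn1, Mki67 and Cenpf), so Cenpa and Ube2c lost their call, and without sedentary replicate 2 it called 27.

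**Figure D4:**
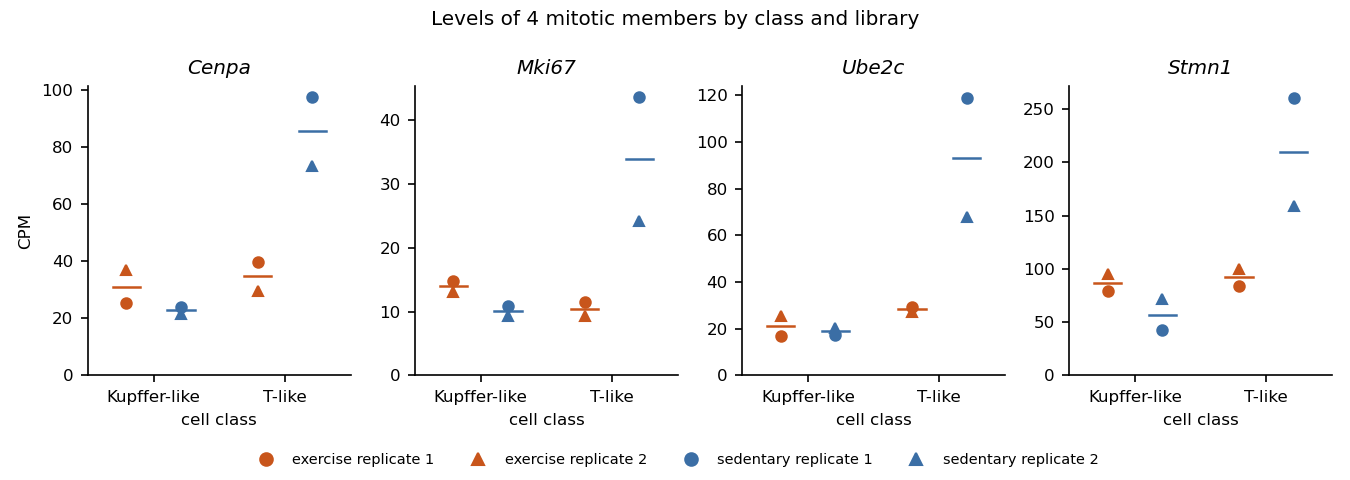
CPM (y axes) of Cenpa, Mki67, Ube2c and Stmn1 in Kupffer-like and T-like cells (x axis), per library (exercise in orange, sedentary in blue; circles are replicate 1, triangles replicate 2, horizontal lines the mean of 2 libraries). In T-like cells Ube2c stands at 29.3 and 27.3 in exercise libraries and 119 and 67.8 in sedentary libraries, while in Kupffer-like cells it stands at 16.95 and 25.5 against 17.4 and 20.6.

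In the other classes edgeR and DESeq2 called 0 members. Of all genes edgeR called 0.17% in endothelial (LSEC)-like, 0.0753% in B-like, 0.0301% in NK or ILC-like cells, 0.601% in the unnamed cluster with hemoglobin and Kupffer transcripts and 0% in pDC-like, cDC1-like, other macrophage-like and classical monocyte-like cells. An unadjusted p under 0.05 was reached by 3 of 6 tested members in endothelial (LSEC)-like cells (4.28% of all genes), 2 of 6 in NK or ILC-like (5.29%), 2 of 36 in cDC1-like (4.38%) and 1 of 16 in B-like cells (5.68%). It was reached by 0 of 16 in the unnamed cluster (4.72% of all genes), 0 of 8 in other macrophage-like (6.44%), 0 of 2 in pDC-like (4.94%) and 0 of 1 in classical monocyte-like cells (2.63%). Endothelial (LSEC)-like cells had a mitotic sum of 228 and 256 CPM in exercise libraries and 149 and 123 in sedentary libraries, and an S-phase sum of 361 and 469 against 308 and 297. Both lists lay higher in both exercise libraries. Natural killer and innate lymphoid (NK or ILC-like) cells varied widely between libraries of 1 group, with mitotic sums of 51.6 and 671 in exercise libraries and 617 and 52.5 in sedentary libraries. Of classical monocyte-like cells, 0 of 35 and 0 of 74 in exercise libraries and 0 of 72 and 0 of 83 in sedentary libraries carried at least 3 members after thinning. Taking 3 counts as the limit a count of 0 allows, these permit shares of up to 8.57 and 4.05% in exercise libraries and 4.17 and 3.61% in sedentary libraries. In cDC1-like cells the share was 15.2 and 13.8% in exercise libraries and 16.3 and 14.9% in sedentary libraries, and in cDC2-like cells 14.3 and 16.9% against 10.4 and 20.8%. In the unnamed cluster it averaged 11.3% over the exercise and 12.8% over the sedentary libraries, with overlap.

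Other genes of the cycle that are not members were counted from other lists. In Kupffer-like cells, of 28 tested other S-phase genes and 49 tested other G2 and mitosis genes, 0 were called by edgeR, where 0.46% of all genes were, with medians of 0.08 and 0.14. Clspn, which signals stalled forks, had a log2 change of 1.00 (adjusted p from edgeR 0.856), Kif20a, a motor of cytokinesis, 1.26 and Anln, anillin, 0.74. Of 15 tested genes of G1 entry 0 were called (median -0.06), with Ccnd1, cyclin D1, at -0.66 (adjusted p from edgeR 0.118) and Myc at -0.59 (adjusted p from edgeR 0.289). Of 11 tested brakes of the cycle 0 were called (median -0.05). Among 9 regulators of macrophage self-renewal 0 were called (median -0.05). In T-like cells all 40 tested other G2 and mitosis genes had a negative change, with a median of -0.80. Of these 0 were called by edgeR, where 0.0228% of all genes were, and 27 had an unadjusted p under 0.05, against 7.06% of all genes. Cks1b, a subunit of cyclin kinases, stood at -1.20, Cdca8, a passenger complex gene, at -1.39 and Cdca3 at -1.88, each with an adjusted p from edgeR of 0.11. The 26 tested other S-phase genes had a median of -0.24 and the 15 tested G1 entry genes of -0.06, with 0 called in each.

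Members of the mitotic list were found in the same cells. For each member, the mean number of other members in cells with a UMI of it was divided by that in cells without. For all 23 mitotic members this ratio was larger for the rest of their own list than for the S-phase list, with medians of 17.9 and 5.11 in Kupffer-like and 28.1 and 4.69 in T-like cells. Among S-phase members, their own list gave the larger ratio for 12 of 20 members in Kupffer-like and 6 of 20 in T-like cells. Cells without a member held fewer mitotic than S-phase members, which raises every ratio for the mitotic list. A larger ratio therefore does not mean more members per cell. Kupffer-like cells with Rrm2 held on average 3.34 other S-phase and 3.08 mitotic members, at ratios of 9.19 and 17.9. In T-like cells with Rrm2 these counts were 2.26 and 3.29. After thinning, Pcna had a UMI in 628 Kupffer-like cells (11.2%) and 219 T-like cells (8.65%), while Stmn1 had a UMI in 246 (4.38%) and 96 (3.79%). These ratios are a description over cells of the 4 libraries, in which deeper cells give more of every gene.

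Kupffer-like cells with at least 3 members were then set against the other Kupffer-like cells of the same library. The members themselves chose these cells, so their own differences are no result, and genes outside the members are given. Other genes of the cycle go with the members, so their rise was largely set in advance by this choice. They are among the genes counted below, and their values are a description. Cells with members numbered 41 and 141 in exercise libraries and 57 and 83 in sedentary libraries. Their median UMIs were 4606 and 3231 in exercise libraries and 2212 and 3109 in sedentary libraries. The other cells had 2716.5 and 2916 in exercise libraries and 2301 and 2850.5 in sedentary libraries. Of 8783 genes tested, 11.6% were higher and 9.19% lower in cells with members by edgeR. Outside the members this was 975 genes higher and 807 lower, or 586 in all where both kinds of cell were thinned to 1000 UMIs and 1052 by DESeq2.

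Of listed genes, 28 of 29 other S-phase, 53 of 53 other G2 and mitosis, 14 of 15 histone and chromatin and 11 of 16 G1 entry genes rose. These lists belong to the cycle, so their rise describes how the cells were chosen. Hmgb2, a chromatin protein of dividing cells, averaged 1230 ± 334 CPM in cells with members and 104 ± 1.71 in the others (SD, n = 4 libraries each, log2 change 3.43, SE 0.08). Dnmt1, which copies DNA methylation to the new strand, averaged 259 ± 4.82 in cells with members and 39.0 ± 3.98 in the others. Ezh2, the Polycomb methyltransferase, averaged 105 ± 6.83 in cells with members and 10.5 ± 1.92 in the others, and Ptma, prothymosin alpha, 3745 ± 530.2 in cells with members and 1164 ± 104 in the others. Each of the 4 was higher in cells with members in 4 of 4 libraries. Among the G1 entry genes Ccne1, cyclin E1, averaged 33.8 ± 17.8 in cells with members and 0.621 ± 0.274 in the others.

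Of 11 tested brakes of the cycle 5 rose and 2 fell in cells with members. Cdkn2c, the CDK4 and CDK6 inhibitor p18, averaged 111 ± 14.3 CPM in cells with members and 9.01 ± 1.54 in the others (log2 change 3.53, SE 0.21). Cdkn1a, the inhibitor p21, averaged 56.1 ± 25.8 in cells with members and 12.8 ± 8.40 in the others (log2 change 2.01, SE 0.24). Both were higher in 4 of 4 libraries.

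Genes of the resident macrophage were lower in Kupffer-like cells with members. Apoe averaged 8681 ± 736 CPM in cells with members and 17026 ± 1136 in the others (log2 change -1.09, SE 0.05). Csf1r, the receptor for the growth factor that keeps Kupffer cells alive, averaged 1422 ± 113 in cells with members and 2101 ± 115 in the others (log2 change -0.68, SE 0.06, adjusted p from edgeR 6.4e-23). Klf2 had a log2 change of -0.83 and C1qb, a complement subunit, of -0.75. All 4 genes were lower in 4 of 4 libraries. Of 15 Kupffer identity genes 12 fell and 1, the scavenger receptor Marco, rose (1164 ± 94.7 in cells with members and 593 ± 104 in the others), and 6 of 7 MHC class II genes and 6 of 9 regulators of self-renewal fell. CPM values are shares of all UMIs of the cells, so what some genes gain others lose. After thinning, 6.18 and 12.3% (exercise) and 8.43 and 10.5% (sedentary) of the shallow Kupffer-like cluster carried at least 3 members. In the first of the other 2 clusters 1.81 and 5.35% against 3.50 and 7.61% did, and in the second 0 and 5.41% against 3.53 and 2.87%. Marco was among the leading genes of the shallow cluster and C1qb among those of the first. The part of cluster makeup was not tested.

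Signs of mixed cells and of transcripts from other cells were measured in the same cells. The median doublet score was 0.6 and 0.5 in exercise libraries and 0.425 and 0.525 in sedentary libraries for cells with members, against 0.3 and 0.325 in exercise libraries and 0.3 and 0.35 in sedentary libraries for the other cells. T cell markers (9 genes) summed to 109.8 and 56.3 CPM in cells with members of the exercise libraries and 24.7 and 42.1 of the sedentary libraries. In the other cells they summed to 40.6 and 39.7 in exercise libraries and 45.2 and 44.3 in sedentary libraries. Hemoglobin genes fell in 4 of 4, with Hbb-bs lower in 3 of 4 libraries, and 5 of 9 hepatocyte markers fell. The part of doublets and of such transcripts in these differences was not tested.

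**Figure D5:**
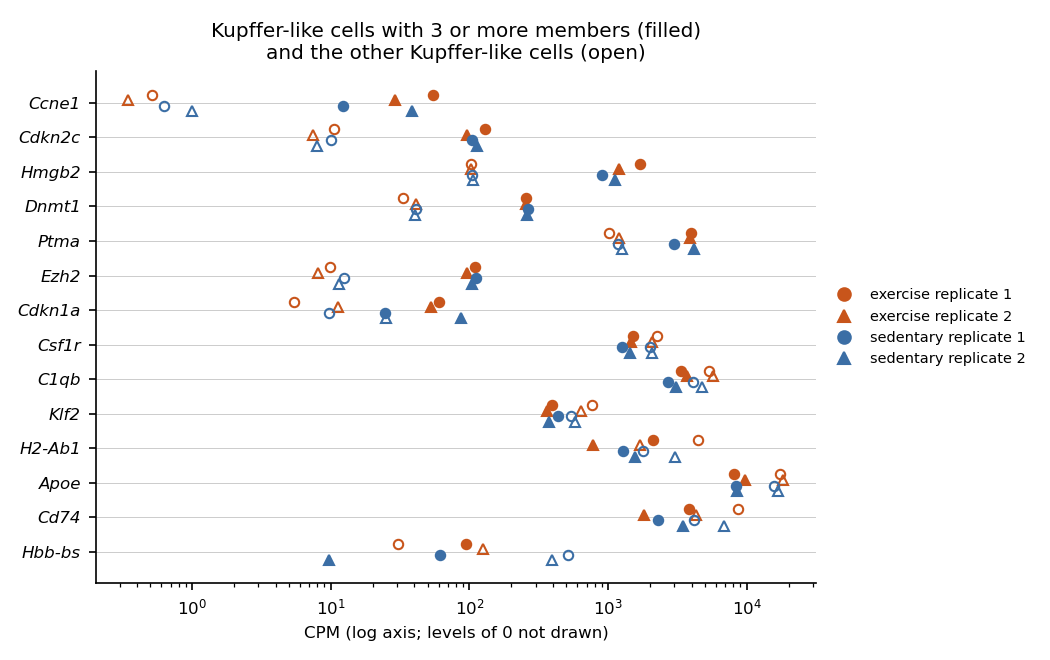
CPM (x axis, log scale) of 14 genes outside the member lists in Kupffer-like cells with at least 3 members (filled points) and in the other Kupffer-like cells (open points), per library (exercise in orange, sedentary in blue; circles are replicate 1, triangles replicate 2; levels of 0 are not drawn). Hmgb2 lies at 907 to 1697 in cells with members and 102 to 106 in the others, and Apoe at 8149 to 9765 against 15655 to 18386.

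T-like cells with at least 3 members were set against the other T-like cells in the same way. They numbered 12 and 30 in exercise libraries and 42 and 28 in sedentary libraries, and their median UMIs were 8364 and 5085 in exercise libraries and 7713 and 6214.5 in sedentary libraries. The other cells had 3040 and 2996.5 in exercise libraries and 2459.5 and 2588 in sedentary libraries. Of 7136 genes tested, 13.2% were higher and 9.87% lower, and outside the members 900 rose and 704 fell, or 268 in all after thinning both kinds of cell. The rise of genes of the cycle was largely set by the choice of cells here too. Hist1h2ap, a replication histone, averaged 1050 ± 809 CPM in cells with members and 10.7 ± 6.91 in the others, and Cks1b 474 ± 102 against 13.2 ± 4.06. Both were higher in 4 of 4 libraries.

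Among the genes that fell in T-like cells with members, 4 are given that were chosen after their values were seen. Btg1, which slows division in resting lymphocytes, averaged 416 ± 225 CPM in cells with members and 1441 ± 357 in the others (log2 change -1.97, SE 0.16, adjusted p from edgeR 4.8e-11). Bcl2, which blocks cell death, averaged 176 ± 68.9 in cells with members and 659 ± 182 in the others (log2 change -2.08, SE 0.20). Ccnd2, cyclin D2, had a log2 change of -1.48 and Klrb1c, a receptor of NK and innate-like T cells, of -2.25. All 4 were lower in 4 of 4 libraries. The smaller T-like cluster gave 4 of 12 and 4 of 30 cells with members in exercise libraries. In sedentary libraries it gave 27 of 42 and 9 of 28. Of all T-like cells it held 112 of 569 and 114 of 656 in exercise libraries. In sedentary libraries it held 227 of 650 and 166 of 662. Bcl2 was among the leading genes of the larger cluster, and the part of cluster makeup was not tested. Of 9 tested brakes 3 rose and 3 fell, and all 6 tested MHC class II genes, which mouse T cells do not normally express, fell. Cells with members were deeper in each library and had median doublet scores of 0.8 and 0.388 in exercise libraries and 0.65 and 0.713 in sedentary libraries. The other cells had scores of 0.175 and 0.1 in exercise libraries and 0.1 and 0.125 in sedentary libraries, and the part of doublets was not tested.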

How the data were processed

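Per the labels' protocols, livers were digested, CD45+ cells were selected with magnetic beads (the series text names cell sorting) and 10x Genomics 3′ v3 libraries were made. The authors deposited raw UMI counts for each gene in each barcode. The submitters' processing notes name Cell Ranger and Seurat 3.1 on mm10 (GRCm38), and the series text a pre-mRNA genome, so reads in introns may be counted. Strand use and the Cell Ranger version are not given in the sources used here. UMIs were not divided by gene length, and levels are compared within a gene or list.

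Barcodes under 500 UMIs or 200 genes or over 20% mitochondrial UMIs were left out, and scored doublets were removed at 0.8% per 1000 cells (68 and 143 for exercise, 130 and 119 for sedentary). Cells (2000 variable genes without the listed cell cycle genes, 30 components, 20 neighbours, seed 1) were clustered with Leiden and named by markers. Resolution 1.0 was planned, but it split Kupffer-like cells by group and gave a cluster led by hepatocyte genes, so classes were taken from resolution 0.5 after seeing this; 5649 of 5656 Kupffer-like cells were shared with resolution 1.0. Libraries shared 11 to 30 barcodes, at most 0.745% of a library.

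UMIs were summed per library and class (at least 20 cells in each library) and tested with edgeR 4.0.16 (filterByExpr, TMM, quasi-likelihood F-test, Benjamini-Hochberg at 0.05 over all tested genes), with DESeq2 1.42.0 as an alternative, in R 4.3.3. Cells with at least 3 members, from counts thinned to 1000 UMIs, were set against the others with library as a block, and shallower cells were left out (34 Kupffer-like and 6 T-like cells, all of sedentary replicate 1). Sums and shares were not tested, and intervals are exact Clopper-Pearson, while the limit for a count of 0 is 3 counts over the number of cells. Clustering and counts used Python 3.11.15 with scikit-learn 1.9.0, igraph 0.11.9 and leidenalg 0.10.2. In simulated counts, edgeR recovered 64% of genes changed by a log2 of 1 and 99.0% at 2 for exercise in Kupffer-like cells (10006 genes), 69% and 100% in T-like cells (8699 genes), and 21% and 87% for the difference between classes (10157 genes). The simulation used 1 fixed dispersion for every gene and changed only genes averaging at least 20 counts. The spread of the real libraries was not matched to it, so these rates may not hold for the members. In T-like cells Kif11, at -2.49, was not called (adjusted p from edgeR 0.217). Members and lists were chosen with earlier results of these data known. Named members were the 4 most abundant of each list and those with the 2 largest changes each way in Kupffer-like cells, with the most abundant members of T-like and cDC2-like cells and any member called. Rrm2, Mcm5, Kif11, Klf2 and other names outside this rule were chosen after their values were seen. Alternatives were DESeq2, no low-count filter, a replicate block, doublets kept, cell cycle genes kept in clustering, resolution 1.0, other depths and member minimums, and each library left out.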

Additional observations from a re-analysis of the deposited data

Results flagged for a closer look

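The exercise effect on 4 mitotic members differed between Kupffer-like and T-like cells by a test of the difference itself. The difference, Kupffer-like minus T-like on the log2 scale, was 1.80 for Cenpa, 2.18 for Mki67, 1.88 for Ube2c and 1.80 for Stmn1, with adjusted p-values from edgeR of 0.0202, 0.0204, 0.0395 and 0.0407 in that order. In T-like cells all 4 were lower in both exercise libraries than in both sedentary libraries, and in Kupffer-like cells Cenpa, Mki67 and Stmn1 were higher in both while Ube2c overlapped. DESeq2 called 0 of the 4. Hepatocyte transcripts were also unequal between the groups in both classes, at 143 and 103 CPM in exercise libraries and 1373 and 650 CPM in sedentary libraries for Kupffer-like cells, and MHC class II genes had a positive difference for 7 of 7, with Cd74 (0.94) and H2-Aa (0.86) called. Klf2 (1.19) was called too. The part of these transcripts in the difference was not tested.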

How the results depend on the processing

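Members called by edgeR for exercise over sedentary (0 in each class) became, with no low-count filter, 4 in Kupffer-like, 22 in T-like, 1 in endothelial (LSEC)-like and 3 in NK or ILC-like cells, and with DESeq2 3 in T-like cells. With the replicate number as a block they became 1 in Kupffer-like (Stmn1), 22 in T-like and 1 in NK or ILC-like cells. Nothing in the labels says that equal numbers pair animals. Deviations of same-numbered libraries correlated positively in 11 of 12 sets of cells, from -0.171 in classical monocyte-like cells to 0.223 over all cells (0.206 in Kupffer-like and 0.144 in T-like cells), which with 2 pairs is a hint from the data and not the design. Leaving out each library in turn gave 0 to 1 over all cells, 0 to 3 in Kupffer-like, 3 to 24 in T-like, 0 to 1 in endothelial (LSEC)-like, 0 to 4 in NK or ILC-like and 0 to 2 in cDC1-like cells, and 3 to 27 for the difference between classes (4 with all libraries, 0 with DESeq2). Genes outside the members called in cells with members were 1052 by DESeq2 and 586 after thinning in Kupffer-like cells (1135 to 1678 leaving out a library) and 995 and 268 in T-like cells (903 to 1526). On the log2 scale, the ratio of shares over all cells ran from -0.35 to 0.46 (S-phase), -0.18 to 0.30 (mitotic; -0.21 thinned to 2000 UMIs) and -0.63 to 0.37 (any member). In Kupffer-like cells it ran from 0.17 to 0.93 (mitotic) and -0.68 to 0.52 (any), and in T-like cells from -1.51 to 0.063 (S-phase), -2.02 to -1.17 (mitotic) and -1.35 to -0.23 (any; -1.61 at 5 members, 0.060 with no thinning). Sums in T-like cells ran from -0.83 to -0.017 (S-phase) and from -1.79 to -0.81 (mitotic). Leaving out 1 library changed the sign of some log2 changes in Kupffer-like cells, for Pcna (-0.030 without sedentary replicate 1, up to 0.22), Mcm3 (-0.35 without exercise replicate 2, -0.07 without sedentary replicate 2, up to 0.32), Tk1 (-0.14 without exercise replicate 2, -0.09 without sedentary replicate 1, up to 0.39), Mcm6 (0.029 without exercise replicate 1, down to -0.67) and Ube2c (-0.17 without exercise replicate 2, up to 0.45), and in T-like cells for Dut (0.23 without sedentary replicate 1, down to -0.73) and Mcm2 (-0.24 to 0.24). In all, 22 of 41 members in Kupffer-like and 10 of 40 in T-like cells took the other sign under at least 1 alternative. The cause was not tested. Keeping doublets or resolution 1.0 moved none of these results past the spread between libraries or across the threshold. Keeping cell cycle genes in the clustering did not either, but raised the mitotic sum of T-like cells in exercise replicate 2 to 502 CPM (345 without them) and lowered its ratio of S-phase to mitotic sums to 1.36 (1.75 without them). Changes smaller than a log2 of 1 were not simulated, so whether this depth could detect them was not tested.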
